A study of Mus musculus with 6 samples.

Results

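Stress hormone signalling was followed here through 9 genes: the receptors for corticosterone and aldosterone, Nr3c1 and Nr3c2, and 7 genes that glucocorticoids are known to induce, Ddit4, Fkbp5, Sgk1, Tsc22d3, Klf9, Errfi1 and Zbtb16. All probe sets whose platform annotation names exactly 1 of these symbols were used, which gave 28 of 45037 probe sets. Of these 28, 22 reached a mean GCRMA intensity of 50 in at least 1 group and were tested, and the other 6 are given as values. The RNA came from cortex of Glt25d2 bacTRAP mice of line DU9, where regulatory sequence of Glt25d2 (now Colgalt2) drives a tagged ribosomal protein in layer 5 pyramidal neurons, so that ribosome-bound messages of these cells can be purified (translating ribosome affinity purification, TRAP). The fluoxetine group drank the antidepressant at 0.167 mg/ml in 1% saccharine, and the vehicle group drank 1% saccharine, each for 15 to 18 days. Each group had 3 Affymetrix arrays, 1 for each independent purification, and all mice were of a stock backcrossed for 3 to 5 generations to C57BL/6 from FVB. The age and sex of the mice and how many went into 1 purification were not found in the sources used here. Without a replicate block, p-values rest on the spread between purifications of a group. With the replicate number as a block, they rest on how the difference between the groups varies across the 3 numbers. The only model was 1 transgenic line.

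Glucocorticoids enter the cell and bind nuclear receptors. The mineralocorticoid receptor, Nr3c2, has the higher affinity and is largely occupied at resting hormone levels, whereas the glucocorticoid receptor, Nr3c1, is filled at the daily peak and under stress. Bound receptor moves to the nucleus, where it can act at glucocorticoid response elements, and one of the genes it induces, Fkbp5, encodes a co-chaperone that lowers the receptor's affinity for hormone. In rodent brain these targets have been used as a readout of glucocorticoid action, in neurons as well as in glia and vessels.

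The group of each array was read from its title, source and treatment fields. The description field of every sample names the opposite treatment. Arrays are therefore called fluoxetine-titled and vehicle-titled, and every difference below changes sign, with no change in any p, if the description field is the correct one. Median intensity lay between 23.03 and 23.45 on the 6 arrays. The driver gene Colgalt2 averaged 805 ± 157 on fluoxetine-titled and 879 ± 46.1 on vehicle-titled arrays (SD, n = 3 each). All 8 measured markers of layer 5 projection neurons passed the intensity filter, with a summed intensity of 38743 to 49590 on fluoxetine-titled against 41410 to 53671 on vehicle-titled arrays. Messages of other cell types were present too. The brightest genes weigh most in each sum, so a sum serves only to compare arrays. Pcp4 of the layer 5 markers averaged 27789 (fluoxetine-titled) and 31644 (vehicle-titled). Aldoc of the astrocyte markers averaged 14443 (fluoxetine-titled) and 13863 (vehicle-titled). Cnp of the oligodendrocyte markers averaged 18146 (fluoxetine-titled) and 16713 (vehicle-titled). Summed intensities were 27839 to 35772 on fluoxetine-titled and 19472 to 34678 on vehicle-titled arrays for 12 astrocyte markers, and 28618 to 35146 on fluoxetine-titled against 20724 to 38200 on vehicle-titled arrays for 9 oligodendrocyte markers. They were 3759 to 5346 on fluoxetine-titled against 3333 to 4619 on vehicle-titled arrays for 9 endothelial markers, of which Pecam1, Flt1, Kdr, Tek and Cdh5 were below the filter. For 8 microglia markers, with P2ry12 and Tmem119 below the filter, they were 2057 to 2869 on fluoxetine-titled against 1263 to 3199 on vehicle-titled arrays. Sums were 1138 to 1361 on fluoxetine-titled against 770 to 1086 on vehicle-titled arrays for 6 mural cell markers (Anpep and Kcnj8 below the filter) and 33438 to 37633 on fluoxetine-titled against 30468 to 38076 on vehicle-titled arrays for 8 interneuron markers. Vehicle-titled array 3 was the lowest of the 6 for the astrocyte, oligodendrocyte, microglia, mural cell and interneuron sums. The mural cell sums did not overlap between the groups. Of the 4 mural cell markers kept, 1 had groups without overlap when taken alone, and 3.61% of all genes kept had such groups. Counted by gene kept, 11 of 12 astrocyte, 8 of 9 oligodendrocyte, 4 of 4 endothelial, 3 of 4 mural cell, 5 of 6 microglia and 5 of 8 interneuron markers were higher under the fluoxetine title. Their median log2 differences were 0.26, 0.15, 0.27, 0.35, 0.16 and 0.099. Of 8 layer 5 markers 2 were higher and 6 lower, with a median of -0.097. Among all 10830 genes kept, 5177 were higher. The part of these cell types in the differences below was not tested. In such purified RNA, fewer cells of a type and less RNA per cell cannot be told apart.

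Over the probe sets kept, each array numbered 1 or 2 was nearest to the array of equal number, by the SD of the log2 difference. Fluoxetine-titled array 3 was about as near to fluoxetine-titled array 2 (0.284) and vehicle-titled array 2 (0.293) as to vehicle-titled array 3 (0.289). The difference within each pair of equal number is given beside the group means. The 2 arrays numbered 1 stood apart from the other 4: the SD of the log2 difference was 0.46 to 0.51 between one of them and one of the others, 0.26 between these 2, and 0.23 to 0.35 among the other 4.

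Setting fluoxetine-titled beside vehicle-titled arrays asks whether ribosome-bound messages for the stress hormone receptors and their targets differ in amount after chronic fluoxetine. All 6 arrays were of TRAP RNA, so a change in message amount cannot be told from a change in translation. Of the 9 genes, Ddit4 had the largest difference, 1.51-fold higher in the fluoxetine-titled arrays, with nearly the same difference in each of the 3 pairs. The other 8, each taken by its probe set of highest mean, had log2 differences between -0.22 for Errfi1 and 0.28 for Zbtb16. The canonical targets Fkbp5, Sgk1, Tsc22d3 and Klf9 had log2 differences of -0.010, -0.023, -0.028 and 0.022, and each of these 4 took both signs, between -0.16 and 0.13, when 1 array or 1 pair was left out. The 95% confidence interval lay within a 2-fold difference in either direction for 20 of the 22 probe sets, all but that of Ddit4 and one dim probe set of Zbtb16. No member passed the threshold of an adjusted p of 0.05 in limma (smallest adjusted p = 1 among the members), a rule that called 0% of the 19073 probe sets tested, and none of the 22 had an unadjusted p under 0.05, which 0.634% of all probe sets had. With the replicate number as a block, 0 members passed again (smallest adjusted p = 0.993 in limma), and 2 of 22 had an unadjusted p under 0.05, where 4.02% of all probe sets did. The median log2 difference of the 9 genes was 0.022, against -0.0068 for the 10830 genes kept, with 5 genes higher and 4 lower. Fluoxetine-titled and vehicle-titled intensities overlapped for all 9 genes, and groups did not overlap for 3.61% of all genes kept.

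**Figure D1:**
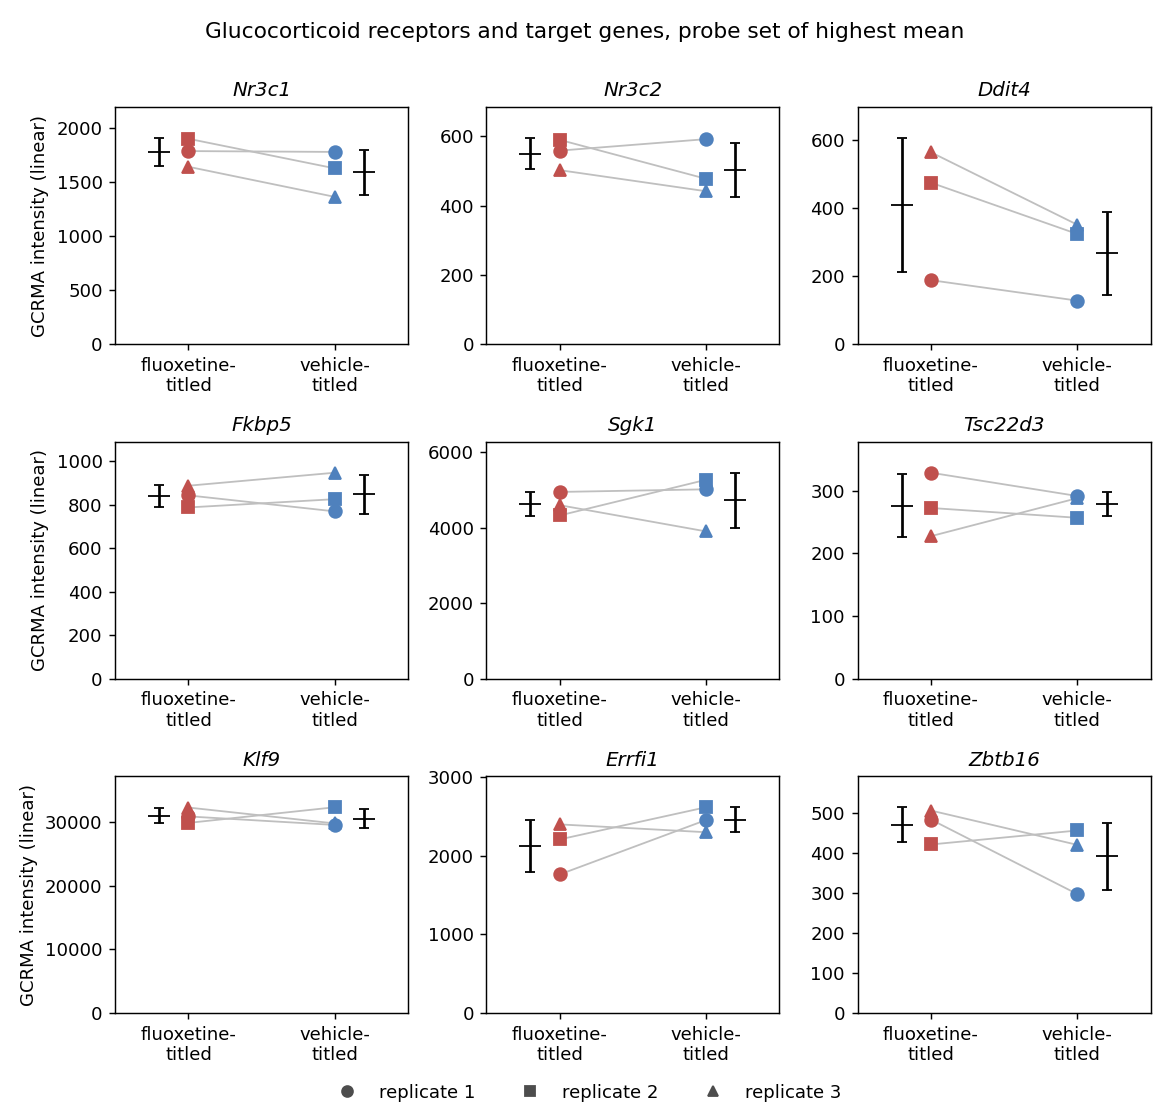
GCRMA intensity on a linear axis for the probe set of highest mean of each of the 9 genes, on the fluoxetine-titled (red, left) and vehicle-titled (blue, right) arrays. Grey lines join arrays of equal replicate number (circle 1, square 2, triangle 3), and black bars give the mean ± SD (n = 3). Each of the 3 lines of Ddit4 is higher at its fluoxetine-titled end, and its 2 arrays numbered 1 lie lowest, at 188 and 127.

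The glucocorticoid receptor gene Nr3c1 had 6 probe sets, and the one of highest mean, 1460303_at, had intensities of 1789, 1903 and 1643 in fluoxetine-titled arrays 1, 2 and 3, against 1781, 1629 and 1364 in vehicle-titled arrays 1, 2 and 3. The groups overlapped, and the difference lay in pairs 2 and 3 (0.22 and 0.27 on the log2 scale) rather than in pair 1 (0.0064). The log2 difference was 0.17 ± 0.15 (SE), with a 95% confidence interval from -0.18 to 0.52 (unadjusted p = 0.299 in limma). It ranged from 0.060 without vehicle-titled array 3 to 0.25 without vehicle-titled array 1. The second probe set, 1457635_s_at, whose suffix marks probes shared by several transcripts, had 1821, 1702 and 1245 on fluoxetine-titled against 1802, 1049.8 and 978 on vehicle-titled arrays. Its log2 difference of 0.35 ± 0.27 was the next largest of the 22 after that of Ddit4, with 0.016, 0.70 and 0.35 in pairs 1 to 3. Without vehicle-titled array 1 it was 0.63, and without replicate 2 it was 0.18. With the replicate block it had an unadjusted p of 0.048 in limma and an adjusted p of 0.993. The other measured probe sets of the gene were flatter. Probe set 1421867_at averaged 525 ± 24.3 (fluoxetine-titled) and 522 ± 57.4 (vehicle-titled), a log2 difference of 0.013, and 1431378_at averaged 63.8 ± 1.08 (fluoxetine-titled) and 59.7 ± 5.56 (vehicle-titled), a difference of 0.10. The 2 probe sets below the filter, 1453860_s_at and 1421866_at, stayed at 28.8 or less on every array and had differences of -0.13 and -0.17.

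The mineralocorticoid receptor gene Nr3c2 had 1 probe set, with 559, 589.8 and 502 in the fluoxetine-titled arrays, against 592, 477 and 441 in the vehicle-titled arrays. The highest of the 6 values was thus on vehicle-titled array 1, and the difference was negative in pair 1 (-0.083) and positive in pairs 2 and 3 (0.31 and 0.19). The log2 difference of 0.14 ± 0.16 had an interval from -0.23 to 0.50 (unadjusted p = 0.411 in limma), and it ranged from 0.047 without vehicle-titled array 3 to 0.26 without vehicle-titled array 1. For both receptor genes the interval leaves out a 2-fold difference in either direction at these probe sets.

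Fkbp5, the co-chaperone of the receptor complex, had 842, 787 and 886 in the fluoxetine-titled arrays, against 768, 825 and 946 in the vehicle-titled arrays at its brightest probe set. The highest value was vehicle-titled and the sign differed among the pairs (0.13, -0.068 and -0.094). The log2 difference was -0.010 ± 0.14, with an interval from -0.33 to 0.31 (unadjusted p = 0.943 in limma). A second probe set close to the filter averaged 50.5 ± 6.27 (fluoxetine-titled) and 47.0 ± 11.7 (vehicle-titled), a log2 difference of 0.13 ± 0.22, or 0.013 with values under 50 set to 50. The third, 1447736_at, lay between 6.08 and 6.97 on all arrays.

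Sgk1 encodes a kinase that responds to serum and corticosteroids and regulates ion channels and transporters, in part by holding back the ubiquitin ligase Nedd4l. Its single probe set had 4950.3, 4326 and 4599 in the fluoxetine-titled arrays, against 5019.6, 5273 and 3903 in the vehicle-titled arrays. The vehicle-titled values enclosed the fluoxetine-titled ones, with pair differences of -0.020, -0.29 and 0.24. The log2 difference was -0.023 ± 0.16, with an interval from -0.39 to 0.35 (unadjusted p = 0.888 in limma).

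Sequence 250 bases before to 50 bases after the start sites of 7 of the 9 genes was taken from RefSeq on GRCm38.p6, 15 windows in all, and searched on both strands for AGAACA, one arm of the response element, and for the palindrome made of GNACA, 3 bases of any kind and TGTNC, which can overlap with it. The arm occurred in 4 of the 15 windows and in 18.97% of all 32851 promoter windows, and the palindrome in 1 of the 15 and in 0.475% of all. The window with the palindrome belongs to Sgk1 (chr10:21993640-21993939, plus strand), where the match begins 188 bases before the start site and overlaps an arm at each end. A further arm begins 242 bases before the start site. This window is shown with that of Ddit4 (chr10:59951721-59952020, minus strand), the gene with the largest difference, in which neither pattern was found. Capitals mark the matches, 5′ to 3′.
Sgk1: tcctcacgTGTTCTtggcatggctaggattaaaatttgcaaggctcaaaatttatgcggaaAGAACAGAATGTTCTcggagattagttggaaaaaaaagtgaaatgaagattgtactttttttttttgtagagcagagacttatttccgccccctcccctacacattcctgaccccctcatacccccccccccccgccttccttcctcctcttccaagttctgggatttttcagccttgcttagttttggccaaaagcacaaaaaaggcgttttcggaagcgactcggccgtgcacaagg
Ddit4: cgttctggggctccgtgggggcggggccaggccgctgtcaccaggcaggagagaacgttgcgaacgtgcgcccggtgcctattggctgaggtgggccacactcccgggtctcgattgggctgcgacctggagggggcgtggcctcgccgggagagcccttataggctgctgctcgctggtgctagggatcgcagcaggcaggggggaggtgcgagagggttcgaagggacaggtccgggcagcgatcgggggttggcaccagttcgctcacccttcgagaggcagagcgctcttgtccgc
Of the 6 start sites listed for Sgk1, the windows of 2 others held 1 arm each, as did 1 of the 3 windows of Tsc22d3. A match of letters is a description of the window, and nothing here measured receptor binding.

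Tsc22d3, which encodes the glucocorticoid-induced leucine zipper protein GILZ, had 329, 273 and 228 in the fluoxetine-titled arrays, against 292, 257 and 288 in the vehicle-titled arrays. The fluoxetine-titled arrays held both the highest and the lowest value, and pairs 1 to 3 had differences of 0.17, 0.085 and -0.34. The log2 difference was -0.028 ± 0.17, with an interval from -0.42 to 0.37 (unadjusted p = 0.873 in limma). Probe set 1420772_a_at had 228, 152 and 143 on fluoxetine-titled against 175, 143 and 158 on vehicle-titled arrays, with the same order of pairs (0.38, 0.080 and -0.14). Probe set 1425557_x_at averaged 91.8 ± 2.37 (fluoxetine-titled) and 92.3 ± 10.2 (vehicle-titled), and 1444365_at stayed at 8.87 or less.

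Klf9, a transcription factor gene induced by glucocorticoids and thyroid hormone, had 7 probe sets, 5 of them kept. The brightest had 30919, 29905 and 32318 in the fluoxetine-titled arrays, against 29582, 32367 and 29817 in the vehicle-titled arrays. Its highest and lowest values were 1.09-fold apart, the narrowest range of the 28 probe sets, and the log2 difference was 0.022 ± 0.12, with an interval from -0.26 to 0.31. The other 4 differed by between -0.12 and 0.11. Among them, 1428289_at was lower under the fluoxetine title in all 3 pairs (-0.21, -0.12 and -0.023), with 5568, 6457 and 6936 on fluoxetine-titled against 6432, 7022 and 7048 on vehicle-titled arrays. Its log2 difference of -0.12 was -0.029 without fluoxetine-titled array 1 and -0.19 without fluoxetine-titled array 3. A single sign in all 3 pairs was found for 24.2% of all probe sets kept. The 2 below the filter lay between 16.7 and 26.5.

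Zbtb16, also known as Plzf, encodes a zinc finger transcriptional repressor that steroid hormones induce in several tissues. Its brightest probe set had 484, 422 and 507 in the fluoxetine-titled arrays, against 298, 457 and 421 in the vehicle-titled arrays. Vehicle-titled array 1 was the lowest of the 6, and the pair differences were 0.70, -0.12 and 0.27. The log2 difference was 0.28 ± 0.19, with an interval from -0.16 to 0.73 (unadjusted p = 0.178 in limma, the smallest of the 22). Without vehicle-titled array 1 the difference was 0.099, and without replicates 1 and 2 in turn it was 0.076 and 0.48. The other 2 probe sets had differences of 0.035 (1419874_x_at) and -0.19 (1427638_at, with 27.6, 69.3 and 55.7 on fluoxetine-titled against 39.8, 53.1 and 74.1 on vehicle-titled arrays, and -0.0095 with values under 50 set to 50), so the probe sets of this gene did not share a sign.

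Errfi1, also known as Mig6, encodes an inhibitor of the epidermal growth factor receptor family. It had 1761, 2206 and 2397 in the fluoxetine-titled arrays, against 2453, 2615 and 2298 in the vehicle-titled arrays. Fluoxetine-titled array 1 was the lowest of the 6, and the pair differences were -0.48, -0.25 and 0.061. The log2 difference of -0.22 ± 0.16 had an interval from -0.59 to 0.15 (unadjusted p = 0.199 in limma), and it was -0.36 without replicate 3 and -0.092 without replicate 1. The second probe set averaged 102 ± 5.06 (fluoxetine-titled) and 103 ± 7.53 (vehicle-titled).

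Ddit4, also known as Redd1, encodes a stress-induced inhibitor of the growth kinase complex mTORC1. It had 188, 474 and 564 in fluoxetine-titled arrays 1, 2 and 3, against 127, 323 and 351 in vehicle-titled arrays 1, 2 and 3. The groups overlapped, because fluoxetine-titled array 1 lay below vehicle-titled arrays 2 and 3, and within each pair the fluoxetine-titled array was higher. The pair differences were 0.56, 0.55 and 0.69 on the log2 scale. The group means were 409 ± 196 (fluoxetine-titled) and 267 ± 122 (vehicle-titled) (SD, n = 3 each). Without the block, the log2 difference was 0.60 ± 0.52 with an interval from -0.62 to 1.82 (unadjusted p = 0.286, adjusted p = 1 in limma). With the replicate number as a block it was 0.60 ± 0.10 with an interval from 0.36 to 0.84 (unadjusted p = 0.000716, adjusted p = 0.993 in limma), the 6th smallest unadjusted p of the 19073 probe sets. A difference of that size or more, in either direction, was found for 31 of 10830 genes kept, 0.286%, and 10.9% of genes were higher in all 3 pairs. In pair 3 the 12 astrocyte markers had a median log2 difference of 0.78, against -0.066 and -0.019 in pairs 1 and 2. The Ddit4 difference was 0.69 in pair 3, against 0.56 and 0.55 in those pairs. Medians in pairs 1 to 3 were -0.25, -0.048 and 0.78 for microglia markers and -0.081, -0.084 and 0.55 for oligodendrocyte markers. They were -0.068, -0.024 and 0.36 for interneuron markers. Endothelial markers had 0.48, 0.49 and -0.049, and layer 5 markers 0.083, -0.12 and -0.16. The 4 mural cell markers kept had medians of 0.15, 0.48 and 0.43 in pairs 1 to 3. One of them, Acta2 (smooth muscle actin, named after its values were seen), had pair differences of 0.54, 0.55 and 0.95 without overlap of the groups (unadjusted p = 0.00843, adjusted p = 1 in limma). Groups did not overlap for 3.61% of all genes kept. The groups of Pdgfrb, Rgs5 and Cspg4 overlapped. Pair differences were 0.25, 0.47 and 0.52 for Pdgfrb and 0.0062, 0.50 and 0.35 for Rgs5. For Cspg4 they were 0.052, -0.012 and -0.073. The part of mural cell RNA in the Ddit4 difference was not tested. The group difference depended on which arrays entered. It was 1.09, 0.42 and 0.29 without fluoxetine-titled array 1, 2 or 3, and 0.13, 0.80 and 0.86 without vehicle-titled array 1, 2 or 3. Leaving out both arrays of a number gave 0.56 to 0.62.

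**Figure D2:**
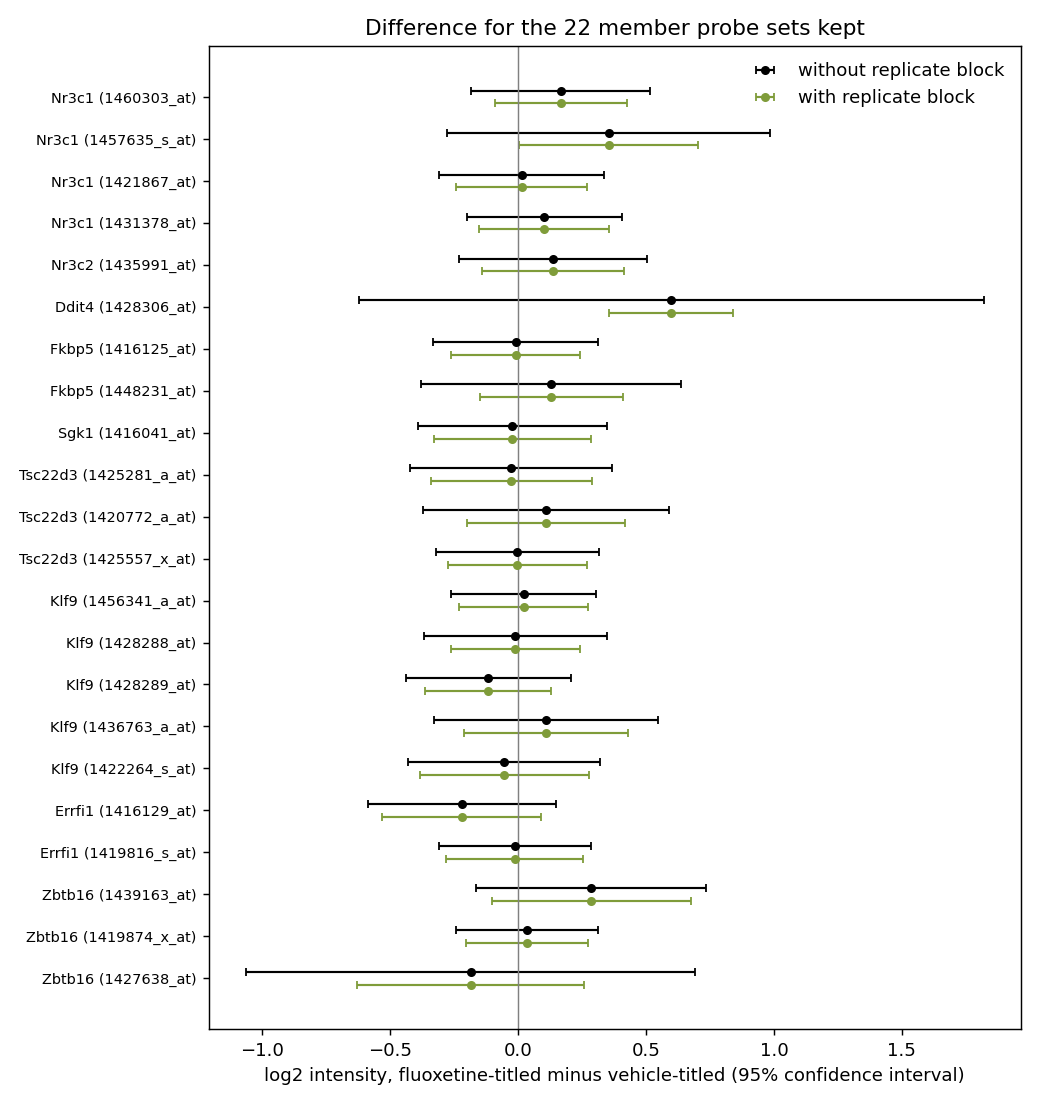
Log2 intensity difference, fluoxetine-titled minus vehicle-titled, for the 22 member probe sets kept, with 95% confidence intervals from limma without the replicate block (black) and with it (green). With the block, the intervals of Ddit4 (0.36 to 0.84) and Nr3c1 probe set 1457635_s_at (0.0042 to 0.70) leave out 0, and neither has an adjusted p below 0.993.

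Ddit4 differed more by replicate number than by title. Its arrays numbered 2 and 3 together were 2.70-fold above those numbered 1, and 0.443% of genes kept differed by as much in either direction. The highest of its 6 intensities was 4.42-fold the lowest. The genes of most similar pattern were taken as those with the smallest root mean square distance between log2 profiles over the 6 arrays, each centred on its own mean, for members that varied more than the median gene (SD of 0.20). For Ddit4 (SD of 0.81) these were Gas7, Eml2 and Zeb2, at distances of 0.17, 0.21 and 0.22. Gas7 had 1700.5, 4023 and 5396 in the fluoxetine-titled arrays, against 1523 (array 1), 3249.8 (array 2) and 3909 (array 3) in the vehicle-titled arrays. Gas7 had, like Ddit4, the low pair numbered 1 and the higher fluoxetine-titled value in every pair, a likeness by which it was chosen. For Zbtb16 (SD of 0.27) the most similar were Nol9, Msantd2 and Cacng8, at 0.053, 0.069 and 0.077, each lowest on vehicle-titled array 1. Such shared patterns follow from how the genes were chosen and are not a separate result. The other 7 members had an SD of 0.20 or less.

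**Figure D3:**
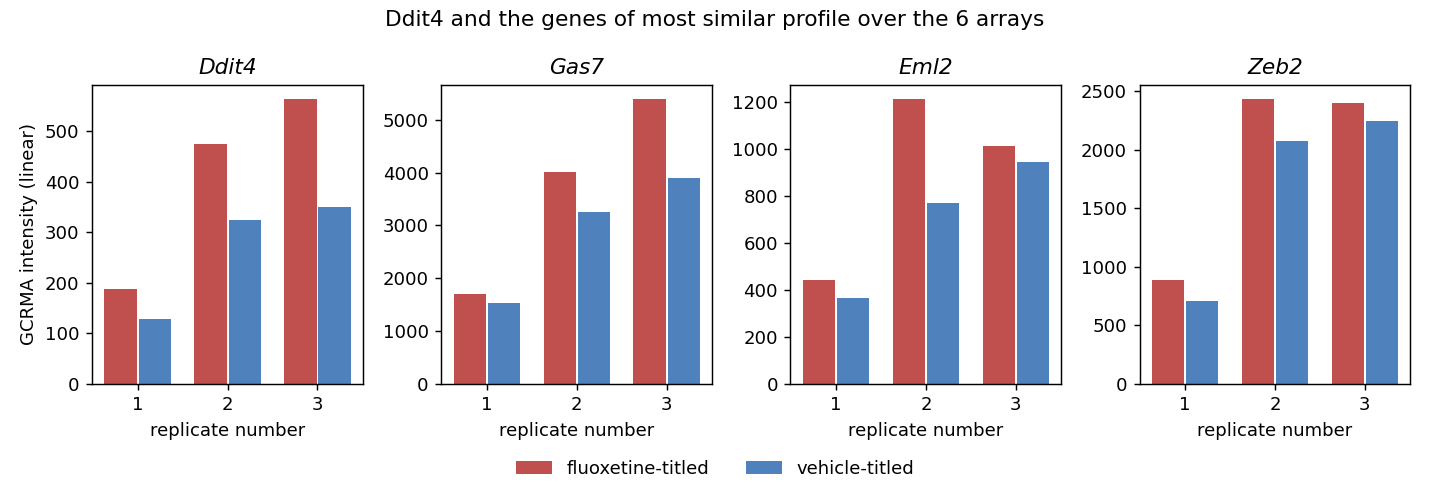
GCRMA intensity on linear axes from 0 for Ddit4 and the 3 genes of most similar profile, by replicate number, 1 bar per array (red fluoxetine-titled, blue vehicle-titled). In each panel the arrays numbered 1 are lowest, and the fluoxetine-titled bar is the taller of each pair, for Ddit4 with 188, 474 and 564 under the fluoxetine title against 127, 323 and 351 under the vehicle title.

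Genes that work beside the members were taken as 8 lists. Together 98 of their genes passed the intensity filter, 56 with a positive and 42 with a negative difference, and their median log2 difference was 0.027. None passed an adjusted p of 0.05 and 0 had an unadjusted p under 0.05 in limma, while 0.591% of all genes kept did. With the replicate block 2 of the 98 had one, and 3.41% of all genes kept. Each of the 8 list medians took both signs when 1 array or 1 pair was left out. A single sign in all 3 pairs was found for 18 of the 98 and for 24.0% of all genes kept. Groups did not overlap for 3 higher genes and 1 lower gene of the 98, and for 3.61% of all genes kept.

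Receptor chaperones and coregulators, which fold the receptors and carry their transcriptional output, were nearly level. Of 15 genes kept, 10 were higher and 5 lower, with a median log2 difference of 0.019 (-0.068 without replicate 1). Hsp90aa1, the inducible form of the chaperone that holds the receptor ready for hormone, averaged 26071 ± 363 on fluoxetine-titled and 25809.9 ± 282 on vehicle-titled arrays. Among genes of steroid supply and transport, 4 of 11 with a probe set passed the filter. Hsd11b1, whose enzyme regenerates active glucocorticoid inside cells, had 629, 498 and 462 in the fluoxetine-titled arrays, against 711, 556 and 579 in the vehicle-titled arrays. It was lower in all 3 pairs (log2 difference -0.22 ± 0.17, unadjusted p = 0.241 in limma), as were 13.1% of all genes kept. Abcb1a, a drug and steroid exporter of the blood-brain barrier, had 118, 84.6 and 84.3 on fluoxetine-titled against 77.1, 56.7 and 83.0 on vehicle-titled arrays. Its groups did not overlap, as for 3.61% of all genes kept (log2 difference 0.40 ± 0.21, unadjusted p = 0.091 in limma, and 0.0277 with the replicate block, adjusted p = 0.993). Abcb1a is itself one of the 4 endothelial markers kept, which had medians of 0.48, 0.49 and -0.049 in pairs 1 to 3. The part of vessel RNA in this difference was not tested.

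A further list held 36 other genes known to be induced by glucocorticoids in some tissue, 29 of which passed the filter. Of these, 18 were higher and 11 lower. The median was 0.041 over all arrays and -0.065, -0.051 and 0.17 within pairs 1, 2 and 3. The phosphatase gene Dusp1, which dampens MAP kinase signalling, had 6162, 5019 and 4909 in the fluoxetine-titled arrays, against 4389, 4682 and 4453 in the vehicle-titled arrays. Its groups did not overlap, as for 3.61% of all genes kept, and the log2 difference was 0.24 ± 0.14 (unadjusted p = 0.123 in limma). Rasd1, the dexamethasone-induced Ras gene, was lower without overlap, with 65.9, 76.6 and 63.0 on fluoxetine-titled against 79.7, 81.3 and 87.0 on vehicle-titled arrays (log2 difference -0.28 ± 0.13, unadjusted p = 0.0769 in limma). Nfkbia, the inhibitor of NF-kappaB, was lower in all 3 pairs, as were 13.1% of all genes kept, with 2687 ± 398 (fluoxetine-titled) and 3096 ± 296 (vehicle-titled). These 3 genes, each known to be induced by glucocorticoids, had differences of both signs.

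Among stress peptides and their receptors, 7 of 14 genes passed the filter, with a median of 0.024, and none had a single sign in all 3 pairs. The mTORC1 regulators that surround Ddit4 had a median of -0.050 over 13 genes, 6 higher and 7 lower, which was 0.076 without fluoxetine-titled array 1 and 0.048 without vehicle-titled array 2. Mtor, the kinase itself, averaged 597 ± 67.4 (fluoxetine-titled) and 639 ± 66.8 (vehicle-titled), and Tsc1, a brake on the complex, 1106 ± 55.8 (fluoxetine-titled) and 1072 ± 38.5 (vehicle-titled). Relatives and partners of Sgk1 had a median of -0.011 over 11 genes. Nedd4l had 3124, 2122 and 2087 in the fluoxetine-titled arrays, against 2695, 1919.8 and 1853 in the vehicle-titled arrays. It was higher in every pair, as were 10.9% of all genes kept (log2 difference 0.18 ± 0.22). Ndrg2, a substrate of the kinase and an astrocyte marker, had a log2 difference of 0.31 ± 0.27, with 0.11, 0.066 and 0.74 in pairs 1 to 3.

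Relatives of Klf9 and Tsc22d3 had a median of 0.077 over 15 genes, 9 higher and 6 lower, which was -0.039 without vehicle-titled array 1. Klf4, a transcription factor gene of vessel walls and of other cell types, had 268, 201 and 328 in the fluoxetine-titled arrays, against 219, 137 and 267 in the vehicle-titled arrays. It was higher in each pair, as were 10.9% of all genes kept (log2 difference 0.38 ± 0.29, unadjusted p = 0.227 in limma, and 0.0115 with the replicate block, adjusted p = 0.993). Mural cell markers had medians of 0.15, 0.48 and 0.43 and endothelial markers of 0.48, 0.49 and -0.049 in pairs 1 to 3, and their part in this difference was not tested. Klf16 was higher in each pair by a mean of 0.14 and Klf7 had a mean difference of -0.17. Of 10 genes of ErbB signalling, on whose receptors the product of Errfi1 acts, 4 passed the filter. The receptor gene Erbb3 had 59.1, 72.7 and 73.4 on fluoxetine-titled against 56.6, 68.8 and 31.7 on vehicle-titled arrays, so that vehicle-titled array 3 stood apart. That array was also lowest in the glial marker sums, and the part of glial RNA in this difference was not tested. The ligand gene Nrg3 had 761, 703 and 700.4 on fluoxetine-titled against 690.3, 594 and 614 on vehicle-titled arrays. Its groups did not overlap, as for 3.61% of all genes kept (log2 difference 0.19 ± 0.13, unadjusted p = 0.175 in limma).

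**Figure D4:**
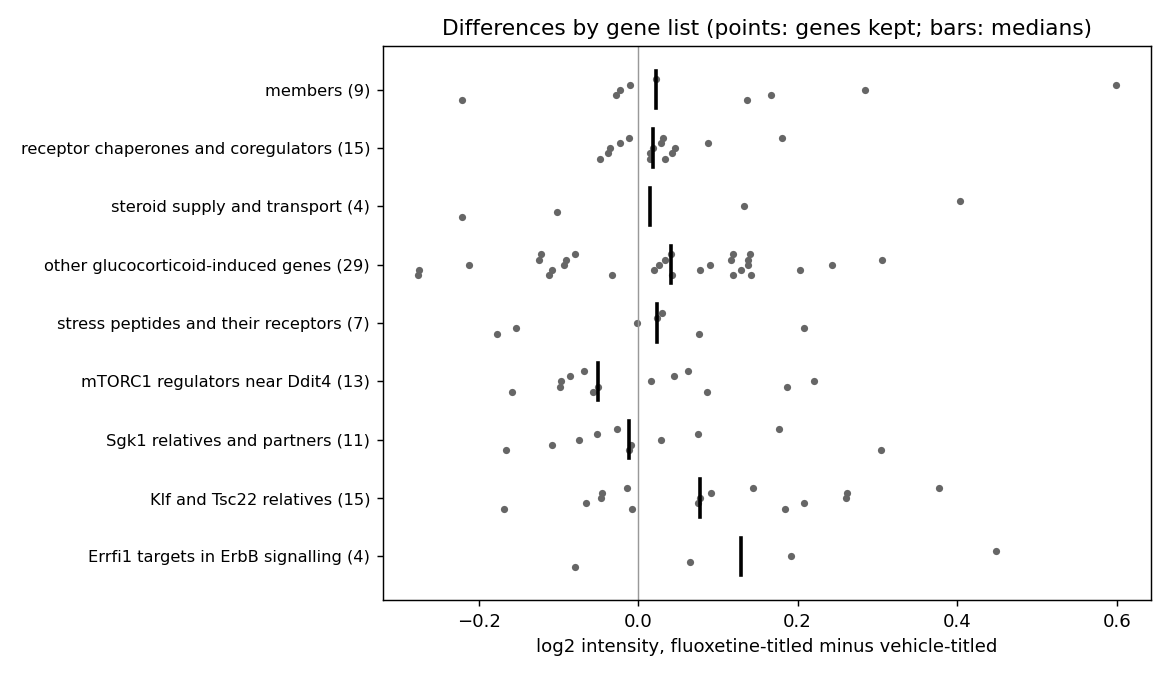
Log2 intensity difference, fluoxetine-titled minus vehicle-titled, for each gene kept (grey points, vertical offsets only to separate them) and the median (black bar) of the 9 members and the 8 lists, with the number of genes in brackets. List medians lie between -0.050 and 0.13, and Ddit4, at 0.60, is the point farthest from 0.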

How the data were processed

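TRAP RNA, 15 ng a sample, went through 2 cycles of amplification before biotin labelling, per the labels' protocols. For each array the authors deposited a table of intensity values. Per the submitters' processing notes they come from GCRMA, a method that models background by probe sequence, equalises the arrays and combines the probes of a set (version not given in the sources used here). Values are linear, and levels of 2 different probe sets cannot be set against each other. The design text recommends a filter at 50. It also advises keeping to a probe set list in print, since a transgene of S100a10 also marks non-neuronal cells. That list is not used here, and all 6 arrays are of the Glt25d2 line.

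Of 45101 probe sets, 64 controls were left out, and 19073 with a mean of at least 50 in 1 group or both were kept. Symbols came from the platform annotation (34945 probe sets with 1 symbol, 932 with several and unnamed, 9160 not listed), and RefSeq identifiers (GRCm38.p6) changed 0 of them. Each of 10830 genes was represented by its brightest probe set. Log2 intensities were fitted with limma 3.58.1 in R 4.3.3 (lmFit, eBayes, two-sided), with p-values adjusted by Benjamini-Hochberg across those 19073. The fit was tested on simulated data, in which 200 probe sets were changed by more than any member differed here. That test does not show how often smaller differences would be found. Intervals are 95% confidence intervals, and the number of arrays limits their precision. The members and lists were chosen with earlier results of these data known. Of each list, the text names up to 3 genes of largest difference among those of 1 sign in all pairs.

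Arrays were paired by replicate number. Deviations from the group means correlated at 0.74, 0.60 and 0.50 for arrays of equal number, and at -0.59 to 0.26 otherwise. These deviations sum to 0 within a group, so a high correlation at 1 number lowers the others. The correlations therefore cannot show that the numbers mark true pairs. Fluoxetine-titled array 3 was about as near to both arrays numbered 2 as to vehicle-titled array 3. The replicate numbers come from the titles, and their meaning was not found in the labels. No 2 arrays looked like 1 library deposited under 2 names (SD of the log2 difference at least 0.23 for each pair of arrays). Alternatives were the replicate block, other filters, a floor at 50, quantile normalization, median centring, a variance trend, each array left out and each pair left out.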

Additional observations from a re-analysis of the deposited data

How the results depend on the processing

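The count of probe sets with an adjusted p under 0.05 in limma was 0 in every alternative run, with 52 to 920 at an unadjusted p under 0.05. The replicate block left each difference as it was, and for Ddit4 (0.60) narrowed its SE to 0.10 (unadjusted p = 0.000716, adjusted p = 0.993 in limma). It changed no adjusted call. At an unadjusted threshold of 0.05 the count was 767 with it, against 121 without it. Quantile normalization turned the difference of Klf9 probe set 1428288_at, -0.011, to 0.0069. With values under 50 set to 50, the differences of Fkbp5 1448231_at (0.13) and Zbtb16 1427638_at (-0.19) were 0.013 and -0.0095. With 1 array or 1 pair left out, the difference changed sign in at least 1 case for 13 of the 22 member probe sets, and ranged from -0.066 to 0.085 for Errfi1 1419816_s_at, -0.081 to 0.073 for Fkbp5 1416125_at, -0.087 to 0.28 for Fkbp5 1448231_at, -0.18 to 0.12 for Klf9 1422264_s_at, -0.10 to 0.092 for Klf9 1428288_at, -0.062 to 0.27 for Klf9 1436763_a_at, -0.025 to 0.090 for Klf9 1456341_a_at, -0.081 to 0.078 for Nr3c1 1421867_at, -0.16 to 0.11 for Sgk1 1416041_at, -0.10 to 0.23 for Tsc22d3 1420772_a_at, -0.16 to 0.13 for Tsc22d3 1425281_a_at, -0.10 to 0.074 for Tsc22d3 1425557_x_at and -0.47 to 0.20 for Zbtb16 1427638_at. The sign held in all these cases for Ddit4 (0.13 to 1.09), Nr3c2 (0.047 to 0.26), Nr3c1 1460303_at (0.06 to 0.25), Nr3c1 1457635_s_at (0.18 to 0.63), Nr3c1 1431378_at (0.023 to 0.15), Errfi1 1416129_at (-0.36 to -0.092), Klf9 1428289_at (-0.19 to -0.029), Zbtb16 1439163_at (0.076 to 0.48) and Zbtb16 1419874_x_at (0.00037 to 0.072). The same omissions turned the sign of all 8 list medians in at least 1 case, with ranges of -0.068 to 0.061 for chaperones and coregulators, -0.058 to 0.12 for steroid supply, -0.08 to 0.11 for other induced genes, -0.086 to 0.084 for stress peptides, -0.067 to 0.074 for Sgk1 relatives, -0.0016 to 0.27 for ErbB signalling, -0.069 to 0.076 for mTORC1 regulators and -0.039 to 0.14 for Klf and Tsc22 relatives, and the median of the 9 members ranged over 0.001 to 0.11. The causes were not tested. The 3 arrays of a group set the width of the intervals, and probe sets below an intensity of 50 were not tested.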

Other observations

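The arrays numbered 2 and 3 and those numbered 1, whose numbers no label explains, differed in mean intensity by at least 1.5-fold in 10.2% of 10830 genes kept, 589 of them higher and 516 lower in numbers 2 and 3. Ddit4 was the only one of the 9 members past that fold. Among the 29 other glucocorticoid-induced genes 4 were past it, a share of 13.8% that lies near that of all genes. These 4, named after their values were seen and all higher in numbers 2 and 3, were Irs2, an insulin signalling adaptor (2.72-fold), the cell cycle inhibitor gene Cdkn1c (2.04-fold), Pik3r1, a regulatory subunit of PI3 kinase (1.79-fold), and the clock gene Per1 (1.64-fold). Irs2 had 318, 914 and 971 in fluoxetine-titled arrays 1, 2 and 3, against 388, 986 and 956 in vehicle-titled arrays 1, 2 and 3. Of 13 mTORC1 regulators 1 was past it (7.69%), Sesn2, a stress-induced inhibitor of mTORC1 like Ddit4, also named after its values were seen. Sesn2 had 52.3, 235 and 239.7 on fluoxetine-titled against 60.7, 162 and 189 on vehicle-titled arrays, and was 3.62-fold higher in numbers 2 and 3. Its fluoxetine-minus-vehicle difference was negative in pair 1 and positive in pairs 2 and 3, whereas that of Ddit4 was positive in each. At their brightest probe sets Fkbp5, Sgk1, Klf9 and Tsc22d3 stood, on the arrays numbered 2 and 3, at 1.07, 0.902, 1.03 and 0.840 times their level on those numbered 1, and the second probe set of Tsc22d3 at 0.746 times.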
